A study of Mus musculus with 45 samples.

Results

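Potassium channels let potassium ions leave or enter cells and thereby set the resting potential of neurons, end each action potential and limit repetitive firing. Most of them are built from pore-forming alpha subunits, which open with voltage (the Kv families), with calcium or sodium, at rest (the two-pore leak channels) or preferentially in the inward direction (the Kir family), and auxiliary subunits adjust their gating and traffic. In the hippocampus they shape dendritic excitability, and in astrocytes Kir channels take up the potassium that active neurons release. The genes described here are all protein-coding genes of the deposited expression table whose symbol begins with Kcn, except Kcnj13. There were 76 of them among the 15897 genes of the table. GENCODE M21 lists 93 such genes, and the other 17 were not analysed here: Kcna7, Kcna10, Kcne1, Kcne3, Kcng3, Kcnh8, Kcnj1, Kcnj5, Kcnj15, Kcnk7, Kcnk15, Kcnk16, Kcnk18, Kcnmb3, Kcnn4, Kcnrg and Kcnv2.

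RNA was measured in the hippocampus of 45 female C57Bl/6J mice, perfused and killed at 13 months of age, of 4 genotypes on 2 diets. AwTw mice were wild-type littermates, AwT+ mice carried Tau P301L driven by the CaMKII promoter, A+Tw mice carried APPswe/PS1dE9 driven by the mouse PrP promoter, and A+T+ mice, from a cross of heterozygous animals, carried both. From 7 months of age each genotype received either a standard diet (STD, 5% fat, 0% cholesterol) or a typical Western diet (TWD, 21% fat, 0.15% cholesterol, 35% sucrose). Each group held 6 mice, except that 5 were A+Tw on STD and only 4 were A+T+ on STD, and each mouse is 1 sample. The labels place 20 mice in batch 0 and 25 in batch 1, with 1 A+Tw/STD mouse in batch 0.

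The deposited values are variance-stabilized, batch-corrected and log2-like, so a difference of 1 is close to a doubling, and no depth per mouse can be read from them. Median values per mouse lay between 8.05 and 8.31. Of the 10 listed markers of pyramidal and granule neurons, Camk2a lay between 15.24 and 16.42 and Prox1 between 9.01 and 10.44. The lowest of the list, Dsp, lay between 7.90 and 10.04. Choroid plexus, the tissue that secretes cerebrospinal fluid, was present in unequal amounts, since the summed level of its 10 markers ranged from 11.22 to 18.17. In 17 of the 45 mice it was at most 13.34 and in the other 28 at least 14.93. Differences were tested with limma on all 15897 genes with batch as a covariate, called at an adjusted p (Benjamini-Hochberg, all genes) under 0.05, and are given ± SE. In such bulk tissue, fewer cells of a type and less RNA per cell cannot be told apart.

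The 76 genes spanned the range of the table, with mean values from 5.39 for Kcne4 to 13.53 for Kcnab2. Of them, 40 lay above the median of all genes, 10 in the highest 10 percent and 14 in the lowest 25 percent. To compare genes with each other, the log2 of transcript length in kb was subtracted from the mean value, which gives a level per kb. On this scale auxiliary subunits were among the highest: Kcnab2, a cytoplasmic beta subunit of Kv1 channels, at 11.56, the Kv4-associated calcium sensors Kcnip2 at 10.17 and Kcnip3 at 9.77, and Kcnmb4, the neuronal beta subunit of the BK channel, at 9.44. Among the pore-forming and silent subunits, levels per kb included those of Kcnk1 (9.08, K2P), Kcnj9 (8.86, Kir), Kcnh3 (8.55, ELK), Kcng1 (8.03, silent modifiers), Kcna6 (7.81, Kv1), Kcnma1 (7.67, the BK pore), Kcnn2 (7.57, SK) and Kcnd2 (7.40, Kv4). The median level per kb was highest in the Kv3 family, at 8.32 over 4 genes, and lowest in the EAG, ERG and ELK family, at 4.23 over 7 genes.

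**Figure D1:**
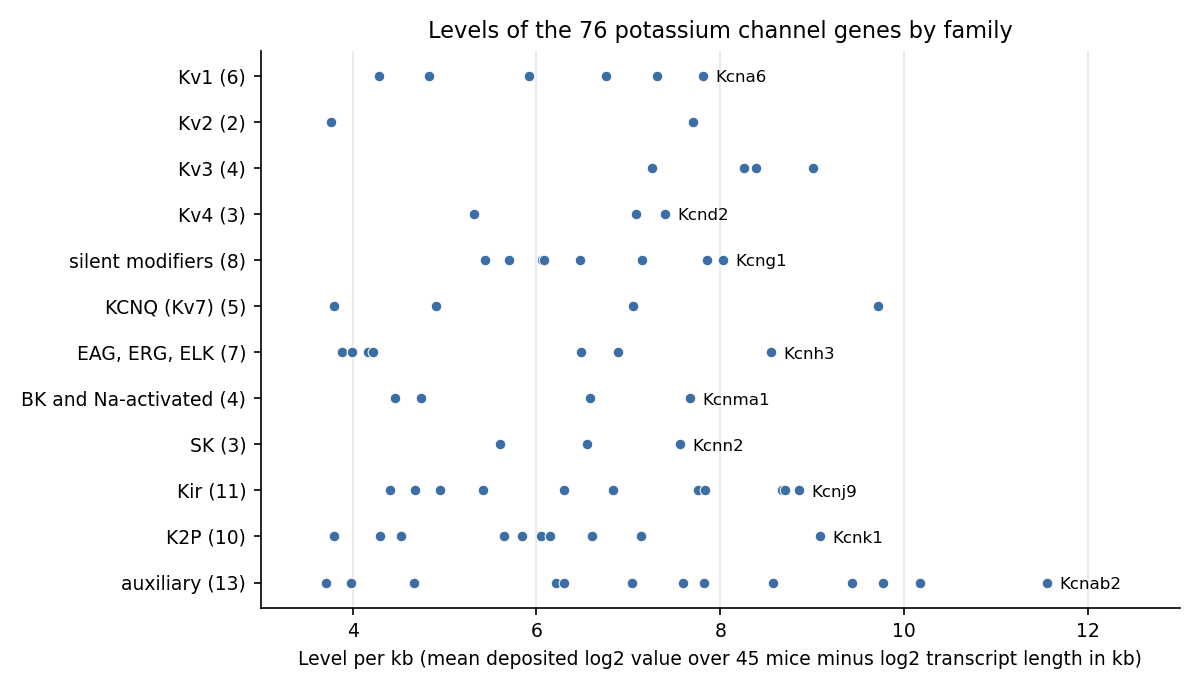
Level per kb (mean deposited log2 value over 45 mice minus log2 transcript length in kb) of each of the 76 potassium channel genes, 1 point per gene, by family with the number of genes in brackets, some genes named. Kcnab2 stands highest at 11.56, and the Kv3 genes lie together around a median of 8.32.

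The genes differed in how evenly they were expressed in mice of 1 group. The residual SD between mice, after group and batch, had a median of 0.251 over the 76 genes and 0.263 over all genes. Kcna6, a Kv1 subunit, was the most even at 0.125, and its values over all 45 mice ran from 10.07 to 10.60. Kcnh7, an ERG channel subunit, reached 0.653 and ran from 6.52 to 9.10. Kcne2 stood apart at 1.54 and is described last.

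The first question was what the diet did to these genes over all genotypes, with 21 mice on STD and 24 on TWD. Of the 76 genes, 25 passed the threshold, which is 32.9% of them beside 29.4% of all genes tested. Of the 25, 8 were higher on TWD and 17 lower, that is 10.5% and 22.4% of the genes beside 16.0% and 13.4% of all genes. The family counts below rest on few genes each and are to be read beside these shares of all genes. The median difference was -0.02 over the 76 genes and -0.0014 over all genes. The adjusted p-values of the 25 lay between 0.0157 and 0.0421, and without AwTw/TWD mouse 3 the count was 16, beside 17.4% of all genes. With each mouse left out in turn, 15 of the 25 kept their call every time, 2 of the 8 higher and 13 of the 17 lower genes. These counts have no share of all genes beside them and are not read as particular to potassium channel genes.

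The Kv1 genes, whose channels sit on axons and their terminals, were mostly lower on TWD, as 4 of 6 passed the threshold downwards and 1 upwards. Kcna1 ran from 8.07 to 9.68 with a median of 9.11 in the STD mice and from 7.29 to 9.50 with a median of 8.60 in the TWD mice. The diets overlapped over most of that range, and the fitted difference was -0.55 ± 0.15 (adjusted p = 0.0159). Kcna4 had a median of 8.40 on STD (7.97 to 8.88) and of 8.00 on TWD (7.37 to 8.67), a difference of -0.35 ± 0.097 (adjusted p = 0.0159). Kcna3 and Kcna2 fell by 0.39 and 0.32 (adjusted p = 0.0239 and 0.0262), and Kcna3 had a low level, at the 10.5th percentile of all genes by mean. Kcna6, the most even of the 76 genes, rose by 0.11 ± 0.040 (adjusted p = 0.0339), and Kcna5 differed by 0.09 (adjusted p = 0.240).

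Kv4 channels carry the dendritic A-type current, and 2 of the 3 Kv4 genes were lower on TWD. Kcnd3 had a median of 10.16 on STD (9.32 to 10.69) and of 9.67 on TWD (8.65 to 10.53), with a difference of -0.40 ± 0.12 (adjusted p = 0.0172). Of the 24 TWD mice, 19 lay below the STD median, and 5 lay below the lowest STD mouse. Kcnd2 fell by 0.42 (adjusted p = 0.0222) and Kcnd1 differed by -0.11 (adjusted p = 0.140). Among the Kv4 calcium sensors, Kcnip2 was higher by 0.18 ± 0.061 (adjusted p = 0.0269) and Kcnip3 by 0.20 ± 0.077 (adjusted p = 0.0421), whereas Kcnip4 differed by -0.40 ± 0.17 (adjusted p = 0.0718) and Kcnip1 by -0.01.

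Of the 4 Kv3 genes, which allow fast-spiking cells to fire at high rates, only Kcnc2 passed. It ran from 9.23 to 10.28 (median 9.91) on STD and from 8.23 to 9.99 (median 9.47) on TWD, a difference of -0.47 ± 0.12 (adjusted p = 0.0157), and 22 of 24 TWD mice lay below the STD median. Kcnc1 and Kcnc4 differed by -0.02 and 0.06. Kcnb2, a delayed rectifier of the Kv2 family, fell by 0.31 (adjusted p = 0.0214). Of the 5 KCNQ genes, which carry the M-current that brakes repetitive firing, Kcnq5 ran from 9.59 to 10.37 (median 10.03) on STD and from 9.09 to 10.11 (median 9.69) on TWD. Its difference of -0.31 ± 0.075 (adjusted p = 0.0157) had the smallest unadjusted p of the 76 genes, and 9 of 24 TWD mice lay below the lowest STD mouse. Kcnq3 differed by -0.39 ± 0.16 (adjusted p = 0.0592).

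In the EAG, ERG and ELK family Kcnh7 fell by 0.52 ± 0.19 and Kcnh1 by 0.14 ± 0.050 (adjusted p = 0.0340 and 0.0371), and Kcnh3 differed by 0.17 (adjusted p = 0.0643). Among the silent modifiers, which form no channel alone and alter Kv2 channels, Kcng2 had a median of 8.53 on STD (8.01 to 8.86) and of 8.77 on TWD (8.33 to 9.46). It was higher by 0.28 ± 0.086 (adjusted p = 0.0200), and 8 of 24 TWD mice lay above the highest STD mouse. Kcns2 fell by 0.23 (adjusted p = 0.0364).

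Of the 11 Kir genes 3 were lower and 1 higher, beside 13.4% lower and 16.0% higher of all genes. Kcnj10, the potassium channel of astrocytes, ran from 10.89 to 11.58 (median 11.31) on STD and from 10.32 to 11.44 (median 11.08) on TWD. The difference was -0.32 ± 0.091 (adjusted p = 0.0161), 22 of 24 TWD mice lay below the STD median, and Kcnj16, its partner subunit, fell by 0.29 (adjusted p = 0.0241). Kcnj3, a G-protein-gated subunit that answers inhibitory transmitters, fell by 0.49 ± 0.14 (adjusted p = 0.0172), whereas its relatives Kcnj6 and Kcnj9 differed by -0.16 and 0.08 and did not pass. Kcnj11, the pore of ATP-sensitive channels that couple metabolism to excitability, was higher by 0.19 ± 0.066 (adjusted p = 0.0323). The classical inward rectifier Kcnj2 differed by -0.34 ± 0.14 (adjusted p = 0.0576), and Kcnj8, the vascular ATP-sensitive pore, by 0.09 (adjusted p = 0.317).

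Of the 10 K2P genes, Kcnk9 fell by 0.36 (adjusted p = 0.0224) and Kcnk4 and Kcnk13 were higher by 0.19 and 0.21 (adjusted p = 0.0358 and 0.0377). Kcnk1, Kcnk2 and Kcnk3 differed by 0.10, 0.03 and 0.03. In the SK family, which underlies the afterhyperpolarization, Kcnn3 had a median of 8.24 on STD (7.65 to 8.64) and of 8.01 on TWD (7.35 to 8.40), and fell by 0.31 ± 0.085 (adjusted p = 0.0157), while Kcnn1 and Kcnn2 differed by 0.13 and -0.01. No member of the large-conductance family passed: the BK pore gene Kcnma1 differed by -0.29 ± 0.13 (adjusted p = 0.0799) and the sodium-activated Kcnt1 by 0.09 (adjusted p = 0.430). The BK beta subunit Kcnmb4 had a median of 9.75 on STD (9.29 to 10.33) and of 10.07 on TWD (9.41 to 10.62) and was higher by 0.28 ± 0.088 (adjusted p = 0.0222). The Kv1 beta subunits Kcnab1 and Kcnab2 differed by -0.05 and -0.02.

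Beside these genes, 20 of 23 listed partner proteins and related channels were in the table. Of these 6 were lower on TWD and 1 higher, beside 13.4% lower and 16.0% higher of all genes. Dpp10, a Kv4 auxiliary protein, fell by 0.57 ± 0.18 and Snx27, which sorts Kir3 channels, by 0.35 ± 0.11 (adjusted p = 0.0214 and 0.0227). Abcc8, the sulfonylurea receptor that assembles with Kcnj11, was higher by 0.29 ± 0.11 (adjusted p = 0.0376). Of 11 potassium pumps and cotransporters 1 was higher and 2 were lower, among them Slc12a2, a sodium, potassium and chloride cotransporter, which fell by 0.56 (adjusted p = 0.0304).

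The 2 batches contributed unequally. In batch 1 alone (13 STD and 12 TWD mice) 31 of the 76 genes passed, beside 40.9% of all genes, and in batch 0 alone (8 STD and 12 TWD mice) none did, as was the case for all 15897 genes. The 17 genes lower on TWD had a median difference of -0.52 in batch 1 and of -0.13 in batch 0, and the 8 higher genes of 0.30 and 0.12. For Kcnj3 the difference was -0.82 in batch 1 and -0.13 in batch 0, and for Kcnmb4 0.39 and 0.18. The difference of the diet effect between the batches, a test added after the data were seen, was past the threshold for none of the 76 genes and none of all genes by limma (smallest adjusted p = 0.125), with 19 of the 76 genes and 28.0% of all genes at an unadjusted p under 0.05. Over all 76 genes the batches gave the same sign for 47. No share over all genes was taken for this count, so it is not read as particular to these genes.

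**Figure D2:**
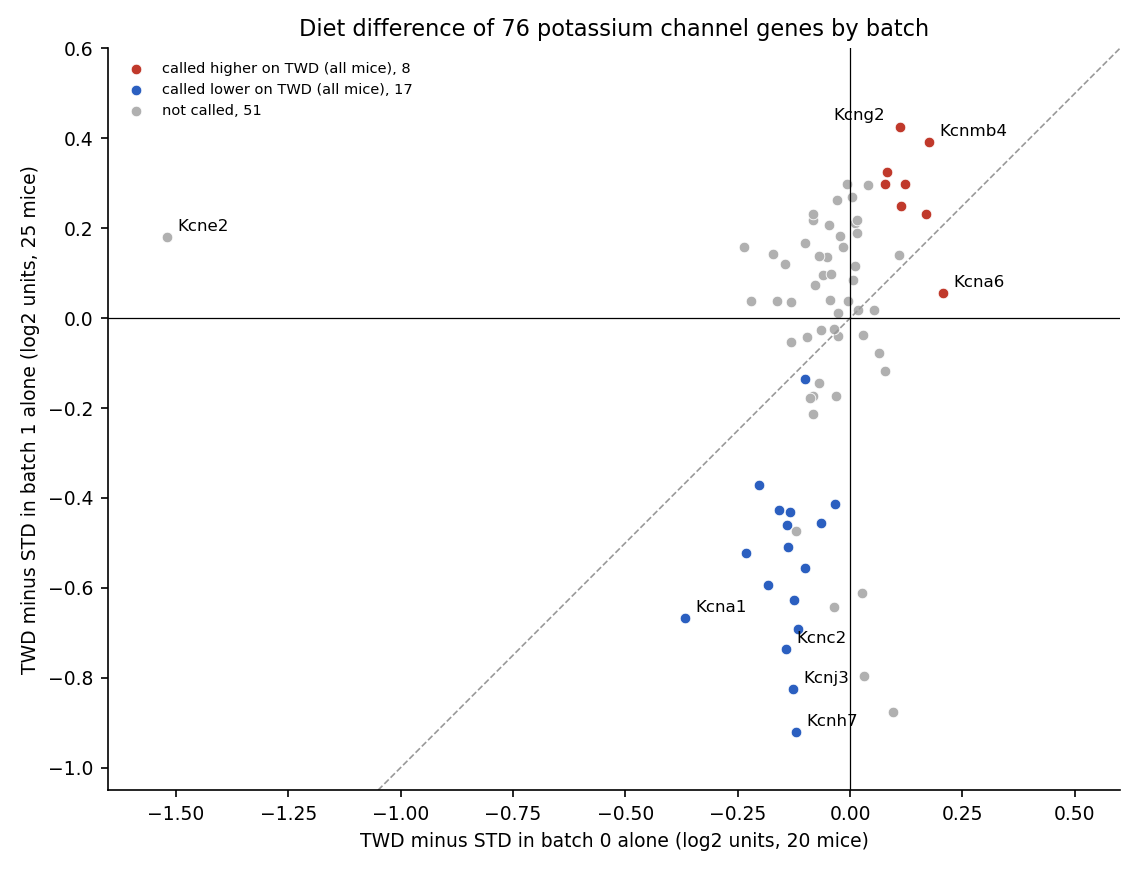
TWD minus STD difference (log2 units) of each of the 76 genes in batch 0 alone (horizontal axis, 20 mice) and in batch 1 alone (vertical axis, 25 mice), with the 17 genes called lower over all mice in blue, the 8 called higher in red and the others in grey, and a dashed line of equal values. The points spread along the vertical axis, from -0.92 for Kcnh7 to 0.43 for Kcng2 in batch 1, and all but Kcne2 lie between -0.37 and 0.21 in batch 0.

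The diet difference also moved with the base composition of the transcripts. The longest coding transcript of the 17 genes lower on TWD had a median GC content of 47.7%, that of the 8 higher genes 56.7%, and that of all 76 genes 53.6%. Across the 76 genes the Spearman correlation of the diet difference with GC content was 0.661, and across the 15695 genes of the table with a transcript it was 0.648. Genes share the same libraries and are not independent replicates, so no p-value is given. The lower genes were also longer, with a median transcript of 5.41 kb, against 2.77 kb for the higher genes. When a smooth function of GC content and length was subtracted in each mouse, 8 of the 76 genes passed beside 11.1% of all genes. This alternative was added after the data were seen. The share of all genes is not divided by direction here, so the direction of the 8 is not read as particular to potassium channel genes. All 8 were lower on TWD. They were Kcna1 (-0.52), Kcna3 (-0.58), Kcnn3 (-0.42), Kcnc2 (-0.28), Kcnd3 (-0.27), Kcnj3 (-0.25), Kcnj10 (-0.23) and Kcnq5 (-0.14), each of which had also passed without the subtraction. None of the 8 higher genes passed then, and Kcnk4 moved from 0.19 to -0.01 and Kcnb2 from -0.31 to 0.09. When each mouse's score on the first residual component was a covariate, none of the 76 genes and none of all genes passed, and Kcnh7 moved from -0.52 to 0.02. That component was computed from values with group and batch removed, and each mouse was then scored on it with its deposited values. The score differed between the diets, with a mean of 13.4 ± 25.1 (SD) in STD and -11.7 ± 28.8 (SD) in TWD mice. As a covariate it therefore also takes up diet difference. The summed level of 10 astrocyte markers was 14.95 to 16.01 on TWD (median 15.45) and 15.34 to 16.00 on STD (median 15.68), and 3 of the 10 were lower and 1 higher on TWD. The summed level of 10 pan-neuronal markers had a median of 16.68 on STD and 16.70 on TWD. That of 10 pyramidal and granule neuron markers had medians of 16.56 and 16.60. Of other lists of 10 markers, 4 interneuron markers were higher and 2 lower, and 4 oligodendrocyte markers higher and 1 lower. Of the microglia markers 4 were higher and 1 lower, beside 16.0% higher and 13.4% lower of all genes. The part of these cell types in the diet differences was not tested.

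**Figure D3:**
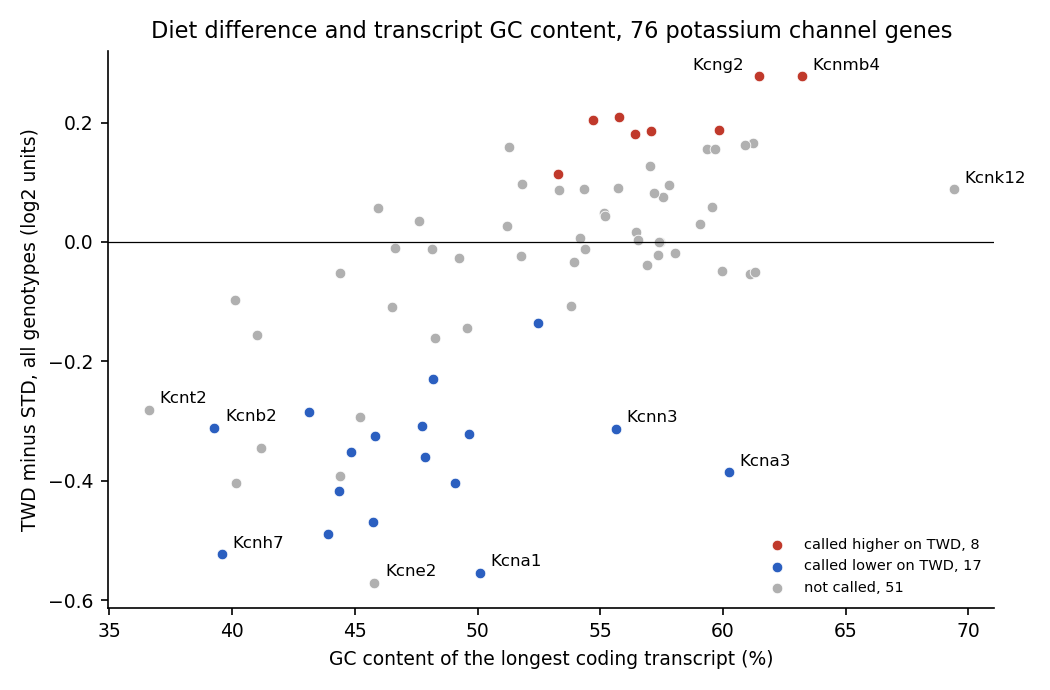
TWD minus STD difference over all genotypes (log2 units, vertical axis) against the GC content of the longest coding transcript (percent, horizontal axis) for the 76 genes, 1 point per gene, coloured by call. The 8 genes called higher have transcripts of 53.3% to 63.2% GC, and among the 17 called lower only Kcna3 (60.3%) and Kcnn3 (55.7%) exceed 53%.

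Within single genotypes the diet was compared on 4 to 6 mice per group. In AwTw mice 8 of the 76 genes passed, beside 9.35% of all genes, and all 8 had an adjusted p of 0.0498. Of these, 4 were higher on TWD (6.01% of all genes were) and 4 lower (3.34%). For Kcnk4, a mechanically gated leak channel, the 6 AwTw/STD mice lay between 7.08 and 7.41 and the 6 AwTw/TWD mice between 7.53 and 7.86, so that the groups did not overlap, and the difference was 0.44 ± 0.13. Its gene overlaps Catsperz on the same strand, so the reads of the pair may not be separable. Kcnmb4 ran from 9.29 to 9.96 on STD and from 9.65 to 10.62 on TWD (0.56 ± 0.17), Kcng2 from 8.12 to 8.71 and from 8.54 to 9.46 (0.54 ± 0.16), and Kcnj11 from 9.03 to 9.61 and from 9.29 to 9.98 (0.37 ± 0.12). These 3 overlapped between the diets. Of the lower genes, Kcnd3 fell by 0.74 ± 0.22, Kcna2 by 0.64 ± 0.21, Kcnj2 by 0.82 ± 0.26 and Kcnk9 by 0.68 ± 0.22. None of the 8 passed under quantile normalization, with equal medians, without the mean trend, with the transcript composition subtracted or in batch 0 alone, and leaving out 1 mouse moved the count between 0 (without AwTw/STD 1, 3, 4 or 5, or AwTw/TWD 1, 2, 3 or 6) and 30 (without AwTw/TWD 5, beside 38.2% of all genes).

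In the other genotypes limma called no gene of the 76, and none (0%) of all genes. At an unadjusted p under 0.05 AwT+ mice had 4 (5.26%, beside 7.44% of all genes), those of A+Tw had 6 (7.89%, beside 4.43%) and A+T+ mice 0 (beside 2.57%). Kcnj10 differed between the diets by -0.48 ± 0.18 in AwTw mice, by -0.26 ± 0.18 in AwT+ mice, by -0.37 ± 0.19 for A+Tw and by -0.14 ± 0.20 with both transgenes. Kcnq5 differed by -0.35, -0.28, -0.33 and -0.27 in the same order, and Kcnmb4 by 0.56, 0.16, 0.21 and 0.14. The diet effect of AwT+, A+Tw or A+T+ mice was not shown to differ from that of AwTw mice for any of the 76 genes or of all genes (0% called), with 4, 1 and 2 of the 76 at an unadjusted p under 0.05 (5.26%, 1.32% and 2.63%, beside 4.02%, 2.21% and 6.3% of all genes). Kcnk12, a silent K2P subunit, was one of the 4 and the 1, with interactions of -0.55 ± 0.20 in AwT+ (adjusted p = 0.780) and -0.44 ± 0.20 in A+Tw mice (adjusted p = 0.919).

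The next question was what the APPswe/PS1dE9 transgene did, over both diets and with or without Tau P301L, in 21 A+ and 24 Aw mice. Of the 76 genes 3 passed, beside 3.77% of all genes: 2 higher in A+ mice (3.11% of all genes were) and 1 lower (0.661%). Among the 76 genes 56 were lower in A+ mice (73.7%, beside 55.5% of all genes), of which 20 had an unadjusted p under 0.05 (26.3% of the 76, beside 7.38% of all genes), and the median difference was -0.07, against -0.02 over all genes. Of 10 markers each, 8 pan-neuronal, 6 pyramidal and granule cell and 9 interneuron markers were lower in A+ mice, beside 55.5% of all genes. Of these markers 1 passed the threshold, and their part in these differences was not tested. The A+ difference also moved with transcript composition. Its Spearman correlation with GC content was 0.356 over the 76 genes and 0.43 over all genes with a transcript. With transcript length it was -0.401 and -0.369. The part of composition and of choroid plexus in the share of lower genes was not tested.

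Kcne1l encodes a single-span auxiliary subunit of the KCNE group, known in RefSeq as Kcne5, and lies on chromosome X from 142304752 to 142306294 (minus strand, GRCm38). It was 0.37 ± 0.070 higher in A+ mice (1.29-fold, adjusted p = 0.000391). Its level was low, at the 27.0th percentile of all genes by mean. The 6 AwTw/STD mice lay between 6.46 and 6.81 (median 6.57), the 6 AwT+/STD mice between 6.38 and 6.73 (median 6.61), the 6 AwTw/TWD mice between 6.61 and 7.17 (median 6.78) and the 6 AwT+/TWD mice between 6.40 and 6.80 (median 6.70). The A+Tw/STD mice had 6.72, 6.74, 6.79, 7.10 and 7.38 and the A+T+/STD mice 6.73, 7.10, 7.27 and 7.30. The 6 A+Tw/TWD mice lay between 6.67 and 7.39 (median 6.96) and the 6 A+T+/TWD mice between 6.71 and 7.46 (median 7.01). All 21 A+ mice were above the Aw median of 6.65 and 14 of 24 Aw mice were below the lowest A+ mouse, so the ranges overlapped in part. The difference was 0.46 in batch 1, where it passed, and 0.23 in batch 0, where it did not (adjusted p = 0.00916 and 0.643).

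Kcnk6 encodes a K2P subunit of the weak inward rectifier type and lies on chromosome 7 from 29221926 to 29232515 (minus strand). It was 0.32 ± 0.068 higher in A+ mice (1.25-fold, adjusted p = 0.00141). Its level was low, at the 22.8th percentile of all genes by mean. The 6 AwTw/STD mice lay between 6.12 and 6.52 (median 6.27), the 6 AwTw/TWD mice between 6.13 and 6.73 (median 6.31) and the 6 AwT+/STD mice between 6.06 and 6.47 (median 6.25). The A+Tw/STD mice had 6.36, 6.37, 6.47, 6.54 and 6.92 and the A+T+/STD mice 6.79, 6.86, 7.04 and 7.09, so that all 4 A+T+/STD mice were above every Aw mouse on STD. The 6 A+Tw/TWD mice lay between 6.39 and 6.96 (median 6.70) and the 6 A+T+/TWD mice between 6.55 and 6.88 (median 6.76). The AwT+/TWD mice went up to the highest value of all mice, from 6.33 to 7.21 (median 6.68), and overlapped the A+ groups throughout. The difference was 0.43 in batch 0 and 0.24 in batch 1 (adjusted p = 0.0596 and 0.290), and it passed in neither batch alone.

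Kcnf1 encodes a silent Kv subunit of neurons and lies on chromosome 12 from 17172100 to 17176888 (minus strand). It was 0.26 ± 0.059 lower in A+ mice (difference -0.26, adjusted p = 0.00453). The 24 Aw mice lay between 9.88 and 10.67 (median 10.21) and the 21 A+ mice between 9.54 and 10.27 (median 10.00). Of the A+ mice 18 were below the Aw median, 4 were below the lowest Aw mouse, and 9 Aw mice were above the highest A+ mouse. By group, the medians were 10.12 (STD) and 10.25 (TWD) in AwTw mice and 10.25 (STD) and 10.17 (TWD) in AwT+ mice, against 10.04 (STD) and 10.02 (TWD) in A+Tw mice and 9.93 (STD) and 9.98 (TWD) in A+T+ mice. The difference was -0.28 in batch 0 and -0.19 in batch 1 and passed in neither (adjusted p = 0.436 and 0.269). With the choroid plexus level as a covariate, an alternative added after the data were seen, it was -0.19 (adjusted p = 0.0650), whereas Kcne1l and Kcnk6 kept 0.34 and 0.35 and their calls. All 10 choroid plexus markers were higher in A+ mice, none past the threshold, with a median difference of 0.76, and their summed level was 11.62 to 17.69 in A+ and 11.22 to 18.17 in Aw mice.

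**Figure D4:**
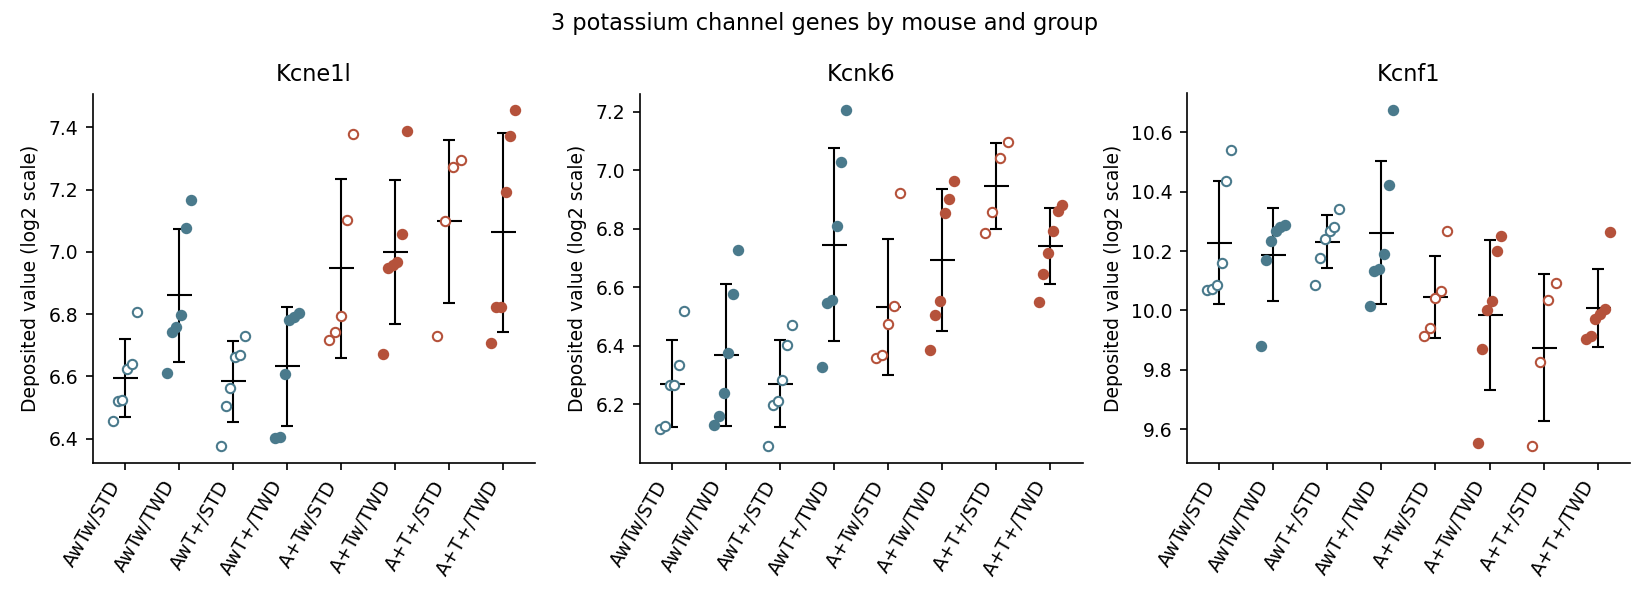
Deposited values (log2 scale) of Kcne1l, Kcnk6 and Kcnf1, 1 point per mouse sorted by value within its group, with A+ groups in red, Aw groups in blue, STD open and TWD filled, and bars of mean ± SD. For Kcne1l the A+ medians reach 7.19 and all lie above the Aw medians, which run from 6.57 to 6.78. The AwT+/TWD mice reach 7.21 for Kcnk6.

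Microglia markers moved with the same contrast. All 10 were higher in A+ mice and 8 passed, with a median difference of 0.61, and all 9 measured markers of plaque-associated microglia were higher, 8 of them past the threshold, with a median of 1.72. The summed level of the microglia markers was 13.43 to 14.28 in A+ and 12.62 to 13.41 in Aw mice, so that the 2 sets did not overlap. It was 12.83 to 13.14 in the AwT+/TWD mice, whose Kcnk6 values reached the highest of all. The part of these cells in the higher Kcnk6 and Kcne1l was not tested.

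The sequences before the start sites of 2 of these 3 genes, from the RefSeq promoter table (GRCm38.p6), are shown because this contrast called these genes in opposite directions. Of the 76 genes 53 had an entry, and Kcnk6 was not among them. Each run gives the 250 bases before the RefSeq start, 5′ to 3′ on the gene's strand, and capitals mark matches to motifs searched on both strands. These were the TATA box (TATAAA), the CCAAT box, the GC box (GGGCGG), the cAMP response half-site (TGACG) and the E-box (CACGTG).
Kcne1l, chrX:142306199-142306448: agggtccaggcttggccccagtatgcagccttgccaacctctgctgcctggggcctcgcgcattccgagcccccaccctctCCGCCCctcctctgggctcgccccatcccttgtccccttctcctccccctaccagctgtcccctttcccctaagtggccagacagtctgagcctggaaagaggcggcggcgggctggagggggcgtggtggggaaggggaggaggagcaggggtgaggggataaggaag
Kcnf1, chr12:17176889-17177138: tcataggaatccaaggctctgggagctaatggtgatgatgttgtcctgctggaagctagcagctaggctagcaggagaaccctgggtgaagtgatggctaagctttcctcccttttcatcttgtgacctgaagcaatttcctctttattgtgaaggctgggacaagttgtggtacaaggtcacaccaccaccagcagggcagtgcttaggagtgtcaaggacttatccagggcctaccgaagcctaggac
The RefSeq start of Kcne1l lies 96 bases from that of GENCODE, so its window overlaps the gene span given above by 96 bases. This window held 9 CG dinucleotides and 68.0% GC, with 1 match to GGGCGG on the other strand, and that of Kcnf1 held 1 CG, 51.2% GC and no match. The median was 6 CG over all 32851 windows of the table and 10 over the 53 windows of potassium channel genes. Over the 53 potassium channel genes, GGGCGG was present in 49.1% of windows and TATAAA in 1.89%, beside 32.7% and 12.4% of all windows. CCAAT was in 28.3% beside 33.9%, TGACG in 20.8% beside 17.8% and CACGTG in 7.55% beside 6.02%. These matches describe the letters in the window and no more.

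Against AwTw mice on the same diet, 1 of the 76 genes passed in A+T+ mice on STD, beside 1.32% of all genes. It was Kcnk6, higher by 0.68 ± 0.14 (1.61-fold, adjusted p = 0.00462), and the 4 A+T+/STD mice did not overlap the 6 AwTw/STD mice. Within the batches, of 2 A+T+/STD mice each, the difference was 0.66 and 0.66 and passed in neither. Kcne1l differed by 0.51 ± 0.15 there (adjusted p = 0.0808) and Kcnf1 by -0.36 ± 0.13 (adjusted p = 0.180). On TWD no gene of the 76 passed in A+T+ mice (beside 0.730% of all genes), and 6 had an unadjusted p under 0.05 (7.89%, beside 7.76% of all genes), with Kcnk6 at 0.39 ± 0.13 (adjusted p = 0.253) and the stretch-activated leak channel Kcnk2 at -0.29 ± 0.093 (adjusted p = 0.232). In A+Tw mice no gene of the 76 passed on STD (beside 0.925% of all genes) or on TWD (beside 0.824%). At an unadjusted p under 0.05 there were 1 on STD (1.32%, beside 5.66% of all genes) and 3 on TWD (3.95%, beside 5.2%), and Kcnk6 was at 0.25 ± 0.13 and 0.35 ± 0.13. These comparisons share the AwTw mice of their diet.

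The Tau P301L transgene was compared in 22 T+ and 23 Tw mice. No gene of the 76 passed by limma, beside 0.0189% of all genes, and 4 had an unadjusted p under 0.05 (5.26%, beside 5.15% of all genes), all higher in T+ mice. Kcnk6 was 0.22 ± 0.067 higher (adjusted p = 0.741) and Kcnh6 0.19 ± 0.061 higher (adjusted p = 0.741). In AwT+ against AwTw mice no gene passed on STD or on TWD, as in all genes (0%). At an unadjusted p under 0.05 there were 0 on STD (beside 2.39% of all genes) and 5 on TWD (6.58%, beside 3.04%). On TWD, Kcnk6 differed by 0.38 ± 0.13 and Kcnk12 by -0.46 ± 0.14 (adjusted p = 0.865 for both).

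Kcne2, a single-span auxiliary subunit that is abundant in choroid plexus epithelium, varied most between mice of the same group. It lies on chromosome 16 from 92292389 to 92298129 (plus strand), and its upstream window is shown because the values of this gene fell into separate clusters.
Kcne2, chr16:92292139-92292388: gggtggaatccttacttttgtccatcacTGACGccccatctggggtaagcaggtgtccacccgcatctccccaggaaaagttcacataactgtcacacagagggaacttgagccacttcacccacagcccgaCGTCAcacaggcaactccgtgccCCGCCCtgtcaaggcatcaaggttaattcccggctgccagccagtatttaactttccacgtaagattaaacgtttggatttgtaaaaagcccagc
This window held 9 CG dinucleotides, 52.4% GC, and 3 matches, namely TGACG on each strand and GGGCGG on the other strand. Sorted by value, 17 mice lay between 4.46 and 6.00 and 28 between 7.25 and 9.08. In the first set Ttr, the transthyretin gene of the choroid plexus, was between 7.49 and 12.55 and in the second between 14.42 and 18.08. Of the 21 A+ mice 4 and of the 24 Aw mice 13 were in the lower set, with all 4 A+T+/STD mice in the upper one. The A+ against Aw difference of 1.01 ± 0.45 did not pass (adjusted p = 0.265), and it was -0.04 with the summed level of the choroid plexus markers, a list that does not hold Kcne2, as a covariate (adjusted p = 0.971). The diet difference was -0.57 ± 0.43 (adjusted p = 0.298), -1.52 in batch 0 and 0.18 in batch 1, and -0.26 with that covariate (adjusted p = 0.0377). Among the other genes of the 76, the mean difference between the same 2 sets of mice ran from -0.37 for Kcnq3 to 0.26 for Kcnh2.

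**Figure D5:**
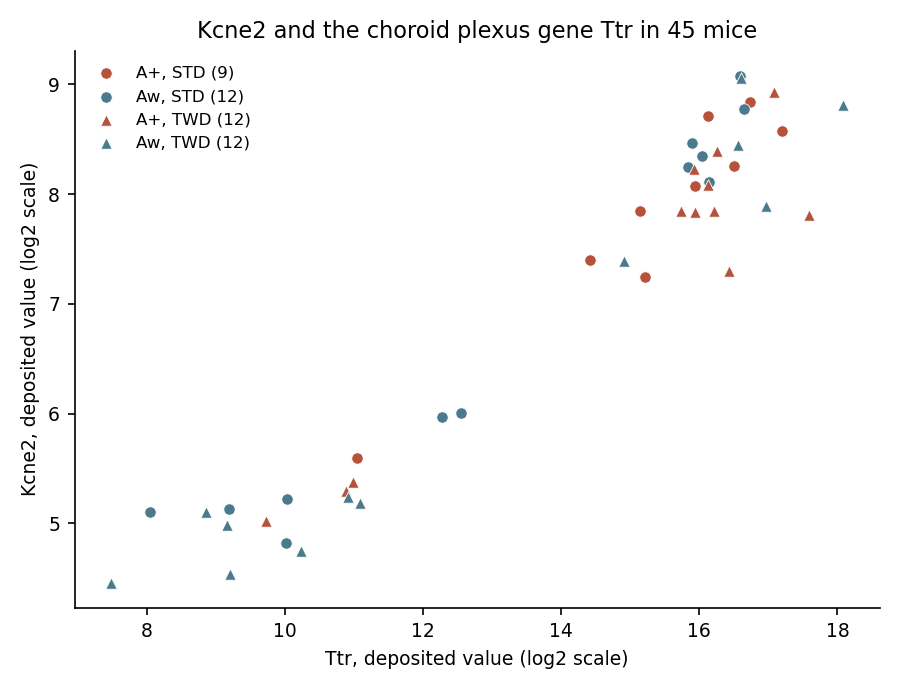
Kcne2 (vertical axis) against Ttr (horizontal axis), both deposited values on the log2 scale, 1 point per mouse for 45 mice, with A+ mice in red, Aw mice in blue, circles for STD and triangles for TWD. The mice form a set of 17 with Kcne2 up to 6.00 and a set of 28 from 7.25 upwards, and each set holds A+ and Aw mice.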

How the data were processed

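Stranded mRNA libraries (single 50-bp reads) were made from each mouse's hippocampus. Per the submitters' processing notes and the study's methods, the authors used FastQC 0.11.8, Trimmomatic 0.38, Bowtie2 2.2.3 (removal of ribosomal and mitochondrial reads), kallisto 0.44.0 with mm10, a filter of mean count above 10, DESeq2 1.22.2 variance stabilization and limma 3.38.3 batch removal, and deposited log2-like values. Batch means were equal for every gene, so the authors' batch removal did not hold the groups. Depth is unknown from these values, and whether counting used strand is not given in the sources used here, so the 17 potassium channel genes that overlap another gene are uncertain, and the values of Kcnn1 are repeated exactly by another gene.

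Groups came from the labels. limma 3.58.1 (R 4.3.3) was fitted to all genes with batch as covariate and a mean trend, for the 8 groups, and additively (genotype, diet, batch) for the diet over all genotypes, with Benjamini-Hochberg adjustment. On simulated data it recovered 92% of genes changed by 0.5 and 99% of those changed by 1 in the diet comparison, and 5.91% of calls were unchanged genes. The simulated data are not shown to hold the residual component or the trend with transcript composition of the real values. These rates are therefore not taken as rates of the real diet calls. The genes and lists were chosen with earlier results of these data known. Named are genes listed by role, at most 6 called genes per direction and comparison, and the highest of each family per kb, besides at most 3 partners or pumps per direction. Some genes that this rule names are not reported here. Kcnc4, Kcnd1, Kcne4, Kcnh2, Kcnh6, Kcnk12 and Kcns2 were named after their values were seen. Alternatives were each batch alone, other covariates, scalings, filters and variance models, and leaving out each mouse. The diet by batch interaction, the subtraction of transcript composition and the choroid plexus covariate were added after the data were seen. Figures were drawn with matplotlib 3.10.9.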

Additional observations from a re-analysis of the deposited data

Results flagged for a closer look

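Single mice stood far from the others of their group in 10 of the 240 combinations of 30 named genes and 8 groups examined, where chance alone gives about 1 in 20, or 12. They concern 9 mice and 8 genes. AwT+/TWD mouse 3 was low for Kcnj10 (10.325, the nearest mouse of the group at 11.042) and for Kcnn3 (7.404 against 8.058). Low values were also those of Kcnd3 in A+Tw/STD mouse 2 (9.316 against 10.021), Kcnf1 in AwTw/TWD mouse 3 (9.88 against 10.169), Kcnh1 in A+Tw/TWD mouse 3 (8.746 against 9.203) and Kcnk13 in AwTw/TWD mouse 1 (6.901 against 7.22). High values were those of Kcnb2 in AwT+/STD mouse 6 (8.238 against 8.019), Kcnf1 in A+T+/TWD mouse 4 (10.263 against 10.005), Kcnh1 in AwTw/STD mouse 3 (9.779 against 9.446) and Kcnk4 in A+T+/STD mouse 1 (7.567 against 7.425).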

How the results depend on the processing

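Counts of the 76 genes called stayed within 1.5 times the value reported under 181 alternatives and moved further under 24. Most comparisons called 0 of the 76 genes, and a count of 0 that stayed 0 is among the 181. That number therefore says little about the comparisons with calls, whose counts follow. The diet count over all genotypes, 25, was 0 in batch 0 alone and with the first residual component as covariate and 8 with transcript composition subtracted. Leaving out 1 mouse gave 16 to 33, with 17.4% of all genes called at 16. The AwTw diet count, 8, was 0 in batch 0 alone, with the label prefix or the first residual component as covariate, under quantile normalization, with equal medians, without the mean trend, with only the groups compared and with composition subtracted. It was 18 in batch 1 alone (3982 of all genes called), 15 among genes above the 25th percentile (23.9% of those), 17 with the choroid plexus covariate (22.1% of all genes), and 0 to 30 with 1 mouse left out (38.2% of all genes at 30). The A+ count, 3, was 0 in batch 0 alone, 1 in batch 1 alone, 13 with the residual component (6.47% of all genes) and 12 with composition subtracted (6.16%). With 1 mouse left out it was 3 to 5. It was 5 without A+Tw/TWD 1, A+T+/TWD 1 or A+T+/TWD 4, beside 4.11%, 3.6% and 4.1% of all genes. The A+T+ count on STD, 1, was 0 in each batch alone and above the 25th percentile, where Kcnk6 is filtered out. It was 2 with the residual component and 3 with composition subtracted. With 1 mouse left out it was 1 to 2 (2 without A+T+/STD 3, beside 1.04% of all genes). On TWD the A+T+ count was 1 with the residual component. Counts of this section given without a share of all genes are not read as particular to these genes. In the diet comparison over all genotypes Kcnk4 (-0.011) and Kcnb2 (0.087) changed sign with composition subtracted and Kcnh7 (0.017) with the residual component. The residual component's score itself differs between the diets. The cause of the other changes was not tested. In the other comparisons limma called 0 of the 76 genes throughout, 0 to 0 with 1 mouse left out. No paired analysis was possible because the labels give no replicate numbers that link mice of different groups. Depth could not be read from the deposited values.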
